A study of Drosophila melanogaster with 8 samples.

Results

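Muscle contractile protein genes were examined in heads of Drosophila melanogaster males that had been fed a convulsant and then an anticonvulsant. The genes were chosen by symbol from a set of 10 (Mhc, Mlc1, Mlc2, up, wupA, Tm1, Tm2, Prm, Act88F and bt), and 5 of them had spots under those symbols in the array annotation: Mlc1, Mlc2, Prm, Tm2 and Act88F. They occupied 12 of the 27648 array features, 5 of 6793 named genes. The other 5, Mhc, up, wupA, Tm1 and bt, were not analysed here.

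The flies were unmated Oregon-R wild type males, 3 to 4 days old at the start. Treated flies ate food with pentylenetetrazole (PTZ), a blocker of inhibitory GABA receptors, during 7 days (8 mg/ml), followed by gabapentin (GBP) during 3 days (16 mg/ml), while parallel controls stayed on normal food. Heads were collected in pools at day 10, or at day 14 after 4 more days on normal food. Both groups of treated flies had thus received PTZ, so the arrays hold no comparison of gabapentin alone. For 3 of the 4 day 14 arrays, the line giving the feeding order writes ETH, which is not explained, for the second drug. Each day had 4 spotted cDNA arrays, each hybridised with a treated and a control pool of 1 biological replicate. Treated RNA was in Cy5 on replicates 1 and 2 and in Cy3 on replicates 3 and 4.

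Striated muscle shortens when thick filaments of myosin pull on thin filaments of actin. Myosin heavy chains carry light chains at their necks, paramyosin packs the core of invertebrate thick filaments, and tropomyosin with troponin gates the thin filament by calcium. In a fly head, muscle moves the proboscis and antennae, beside brain, eye and fat body. Heads were separated by sieving frozen flies. In bulk heads, fewer muscle cells and less RNA per muscle cell cannot be told apart.

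Each value is a deposited log2 ratio. Arrays with treated RNA in Cy3 were multiplied by -1, so that a value above 0 reads as more signal in treated flies. This reading takes Cy5 as the numerator on every array, which the sources used here do not state, and for members and named list genes whose mean turns sign with the deposited signs left alone, that value is given in the text. Arrays were not centred: after this turn, their medians lay between -0.83 and 0.11 at day 10, and between -0.48 and 0.29 at day 14. Ratios carry no level, so neither the amount of muscle RNA nor the tissue could be checked by level. Of 22 photoreceptor marker genes, 11 were on the array, and 7 to 11 of these had values on each array.

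Of the muscle genes, Prm stood lowest at the end of drug feeding, and the other 4 lay between percentile 16.2 (Tm2) and 77.4 (Mlc2) of all genes and features. With arrays centred on their medians, the other 4 lay between percentile 20.2 (Tm2) and 45.7 (Mlc1). Prm encodes paramyosin and, from an internal promoter, the shorter miniparamyosin, both rod proteins of the thick filament. Its log2 ratios at day 10 were -2.28, -1.14, -0.99 and -0.20 on replicates 1 to 4. All 4 arrays were below 0, replicate 1 was the lowest and replicate 4 the nearest to the control. Relative to all genes and features on the same array, Prm was at percentile 3.48, 3.36, 2.25 and 27.9. The mean was -1.15 ± 0.31 (SE, n = 4; limma unadjusted p = 0.00236, adjusted p = 0.627), 0.90 below the day 10 median over all tested genes and features, which was -0.25. Prm lay at percentile 0.69 of the 11312 tested, and it did not pass. Without replicate 1 the mean was -0.77 (limma adjusted p = 1).

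The low value of Prm came mostly from 1 of its spot pairs. The gene had 2 pairs of neighbouring spots far apart on the array, and the sources used here do not say whether they carry different cDNA clones, or clones of different transcripts. The first pair averaged -0.51, -0.12, -0.61 and 0.11 on day 10 replicates 1 to 4. The second pair averaged -4.04, -2.15, -1.37 and -0.52 on the same arrays. The second pair was below the first on every one of these arrays, with differences of -3.54, -2.02, -0.77 and -0.63.

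On replicates 1 and 2 this gap was larger than in 99.5% and 99.3% of genes with 2 spot pairs measured (423 and 410 genes). On replicates 3 and 4 it was larger than in 82.8% and 71.8%. The spots within the second pair also differed from each other by up to 1.67, on day 10 replicate 1, where the 95th percentile over all pairs of neighbouring spots was 1.36. With the first pair alone Prm had a day 10 mean of -0.28 ± 0.26 (SE, n = 4; limma adjusted p = 0.76), at percentile 44.1. With the second pair alone it had -2.02 ± 0.42 (SE, n = 4; limma adjusted p = 0.49), at percentile 0.018. Which pair reports the transcript was not tested.

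**Figure D1:**
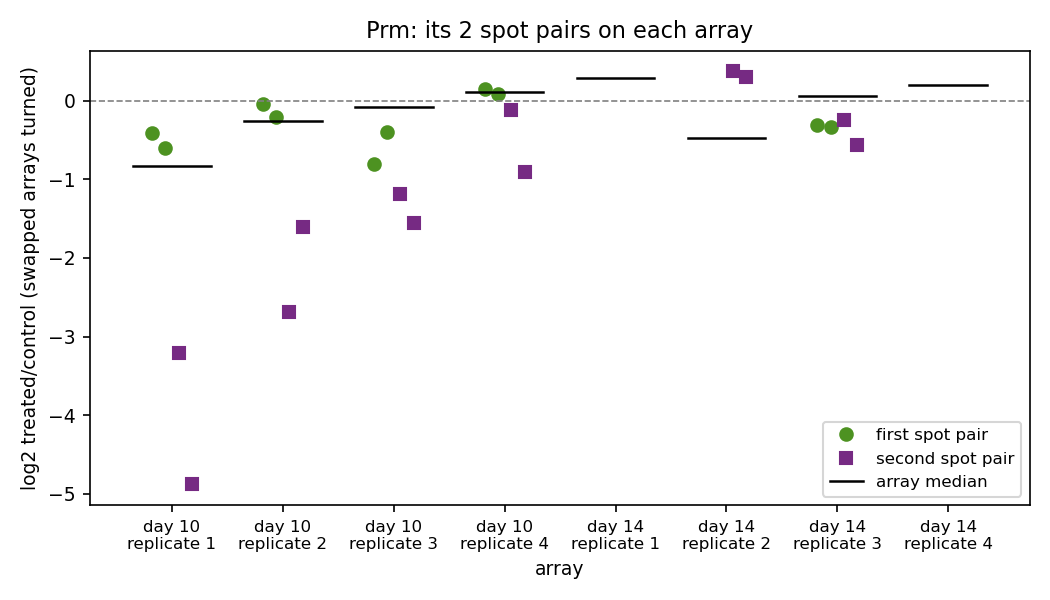
Log2 ratio of treated over control for each spot of Prm (y axis) on each of the 8 arrays (x axis); circles are the first spot pair, squares the second, and black bars the median of all values on that array. At day 10 the second pair averaged between -4.04 and -0.52 and lay below the first pair on all 4 arrays, while day 14 replicates 1 and 4 have no value.

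Averaged over both spot pairs, Prm stayed low when array offsets were removed and moved toward the other genes when the dye reading was changed. With each array centred on its median, the values were -1.44, -0.87, -0.91 and -0.31 and the mean was -0.88 (limma adjusted p = 0.991). With arrays centred by position in the table, the values were -1.46, -0.76, -0.72 and 0.08, so replicate 4 lost its sign. The mean was -0.72 (limma adjusted p = 0.797). On that scale the first pair alone had 0.05, 0.08, -0.36 and 0.58, and the second pair -2.98, -1.60, -1.08 and -0.42. With the signs of the swapped arrays left as deposited, the mean over both pairs was -0.56 at percentile 20.3. Averaged over both pairs, Prm passed when arrays were weighted by their estimated precision (-1.08, limma adjusted p = 0.0169), as did 91 of 11312 genes and features, 86 of them lower. There replicates 1 and 4 had weights of 0.28 and 0.39 against 2.14 and 1.21 for replicates 2 and 3.

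Mlc1, the alkali (essential) myosin light chain gene of muscle, had -1.34, -0.53, 0.15 and 0.68 on day 10 replicates 1 to 4. The spots of its pair had -0.99 and -1.69 on replicate 1. Both arrays with treated RNA in Cy5 were below 0 and both with treated RNA in Cy3 above. The mean of -0.26 ± 0.31 (SE, n = 4) lay at the median of all genes and features, with a difference of -0.01, and it turned to 0.10 without replicate 1. Read as deposited, all 4 values were below their array's median, as were those of 15.4% of genes and features on every measured array. With deposited signs left alone the mean was -0.68 ± 0.24 (SE, n = 4; limma adjusted p = 0.151), 0.37 below the median of all genes on that reading.

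Mlc2, the regulatory myosin light chain gene of muscle, had no value on day 10 replicate 1 and -0.24, -0.45 and 0.42 on replicates 2 to 4. The arrays disagreed in sign, and the mean of -0.09 ± 0.30 (SE, n = 3) lay 0.16 above the median of all genes and features. Replicate 1, where Mlc2 was missing, had the lowest array median (-0.83). With arrays centred on their medians, the Mlc2 mean was -0.01, or 0.04 below the median of all, at percentile 42.2. Uncentred and without replicate 3, the mean turned to 0.09. The spots of its pair differed by at most 0.12 on any array, so the disagreement lay between arrays and not between spots.

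Tm2, a muscle tropomyosin gene of the thin filament, had -0.94, -0.35 and -0.16 on day 10 replicates 1, 2 and 4. The spots of its pair had -0.32 and 0.006 on replicate 4. Averaged over the spots, all 3 measured arrays were below 0 and below their array medians, with centred values of -0.10, -0.09 and -0.27. The mean was -0.48 ± 0.30 (SE, n = 3; limma adjusted p = 0.76), at percentile 16.2. Centred by position, replicate 1 turned to 0.15 and the mean was -0.09.

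Act88F encodes the actin of the indirect flight muscle, a thoracic muscle, and it was the only member with a value on all 8 arrays. Actin genes have closely similar coding sequences, so signal from other actin transcripts on its spots cannot be told apart. On day 10 replicates 1 to 4 it had 0.07, -0.003, -0.89 and -0.29. Replicate 3 was the lowest, and the mean of -0.28 ± 0.25 (SE, n = 4; limma adjusted p = 0.76) lay 0.03 below the median of all genes and features. Centred on array medians, the values were 0.91, 0.26, -0.81 and -0.41, split by dye as for Mlc1 but in the opposite sense. Read as deposited and centred, Act88F was above the array median on all 4 arrays, as were 18.3% of genes and features on every measured array, with a mean of 0.60 ± 0.17 (SE, n = 4; limma adjusted p = 0.0948).

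**Figure D2:**
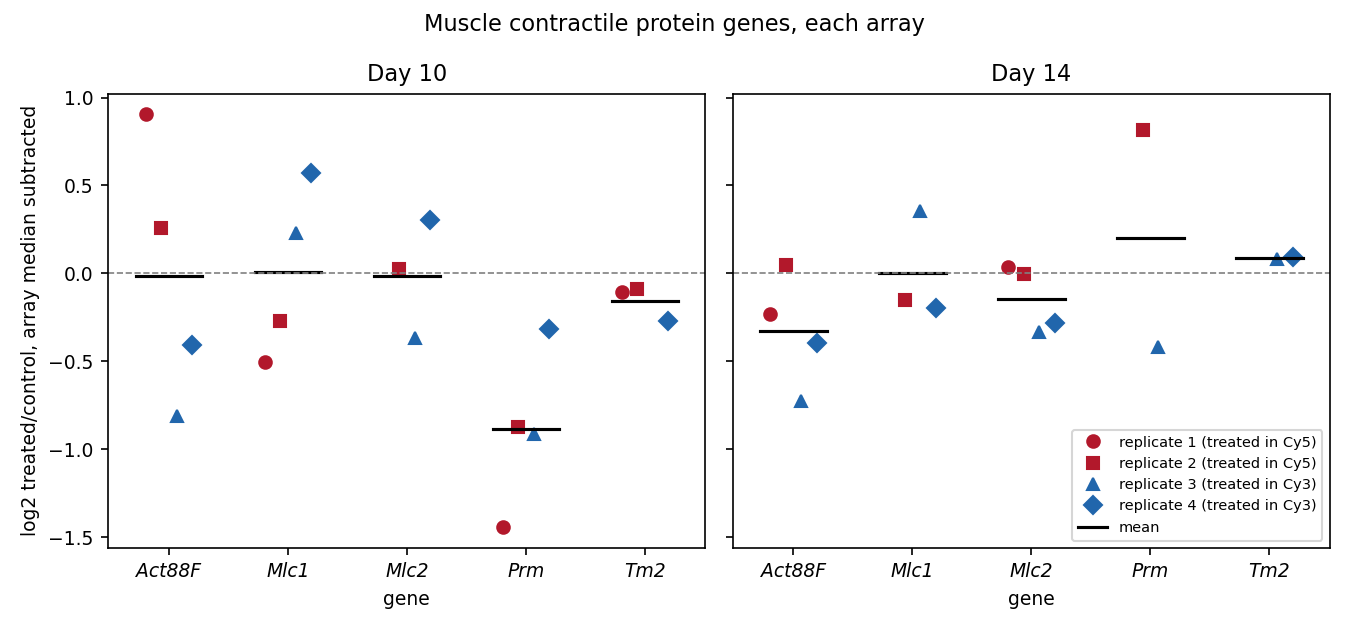
Log2 ratio of treated over control with the array median subtracted (y axis) for the 5 muscle genes (x axis) at day 10 and day 14; each point is 1 array, red with treated RNA in Cy5 and blue in Cy3, and bars are means. Prm, averaged over its spot pairs, is below 0 on all 4 day 10 arrays, from -1.44 to -0.31. The red and blue points of Act88F and Mlc1 fall on opposite sides of 0 at day 10.

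At day 10, 5 of 5 genes had the 3 values needed for the test, and by limma's moderated test 0 passed, against 0 of 11312 genes and features (0%). At an unadjusted p under 0.05, 1 of the 5 was lower (Prm) and none higher, where 5.47% of all genes and features were lower. The 5 had a median of -0.28 beside -0.25 over all tested, and 4 of 5 lay below that median, as 50% of all do. Below the median of all lay 5 of 5 with arrays centred on their medians and 3 of 5 with arrays centred by position. Prm, averaged over its spot pairs, and Tm2 were below 0 on every measured array, as were 16% of genes and features. With arrays centred on their medians both still were, beside 6.83%. Centred by position, no member was, beside 8.76%. On each day 10 array, 3 of the 4 or 5 measured genes lay below the array median.

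The genes differed in how their ratios followed the dyes. If swapped arrays were deposited unturned, a difference between treated and control RNA gives ratios of opposite sign in the 2 orientations. At day 10, with array medians subtracted, Prm (-1.16 with treated RNA in Cy5 and 0.61 in Cy3) and Tm2 (-0.10 and 0.27) had opposite signs. Act88F (0.58 and 0.61), Mlc1 (-0.39 and -0.40) and Mlc2 (0.03 and 0.03) had the same sign in both. Tm2 in Cy3 and Mlc2 in Cy5 rested on 1 array each. The Prm means average its spot pairs. On replicates 1 to 3, so in both orientations, the spots of its first pair lay above the median of deposited values (percentiles 55.8 to 95.2). On replicate 4 they lay at percentiles 47.1 and 52.8. Over all genes and features tested at day 10, 64.4% had the same sign in both orientations. At day 14, Act88F had opposite signs (-0.09 and 0.56), while Mlc1 (-0.15 and -0.08), Mlc2 (0.02 and 0.31) and Prm (0.82 and 0.42) had the same sign, where 49.0% of all genes and features did. Tm2 had no day 14 value with treated RNA in Cy5. With a dye term in the fit, which cannot move a mean over 2 arrays of each orientation, Prm had a limma adjusted p of 0.103 at day 10.

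**Figure D3:**
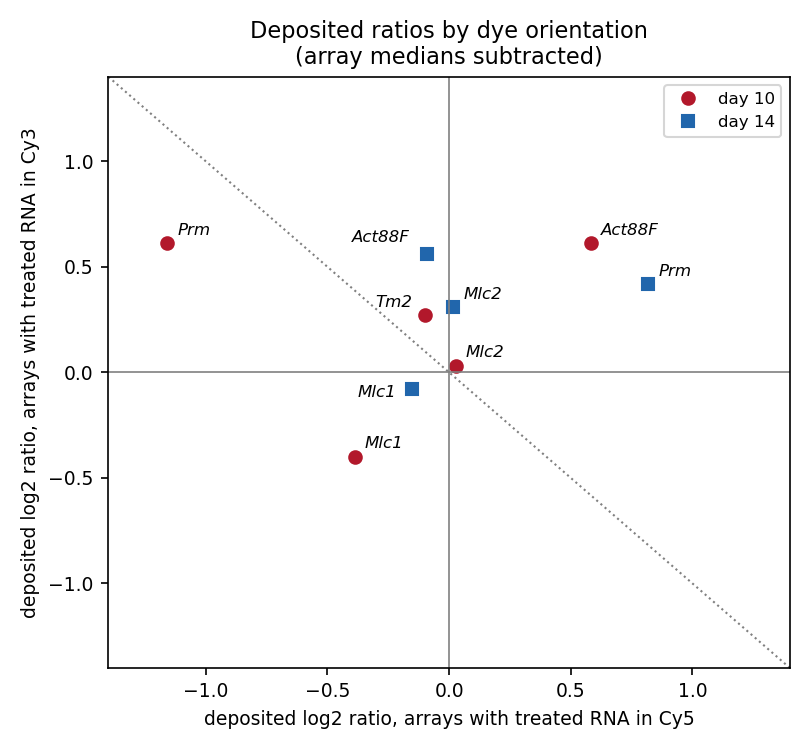
Mean deposited log2 ratio, array medians subtracted, on arrays with treated RNA in Cy5 (x axis) against arrays with treated RNA in Cy3 (y axis), 1 point per muscle gene and day; the dotted line marks equal size and opposite sign. Day 10 Prm (-1.16, 0.61) and Tm2 (-0.10, 0.27) and day 14 Act88F (-0.09, 0.56) lie in the quadrant of opposite sign, while Act88F (0.58, 0.61) and Mlc1 (-0.39, -0.40) of day 10 lie in the quadrants of equal sign. Prm is averaged over its spot pairs.

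After 4 further days on normal food, none of the 3 muscle genes with enough values for the test (Act88F, Mlc2 and Mlc1) passed it. Act88F had 0.06, -0.43, -0.67 and -0.20 on day 14 replicates 1 to 4, so 3 of 4 arrays were below 0. Its mean was -0.31 ± 0.25 (SE, n = 4; limma adjusted p = 1), at percentile 5.1 of the 6142 genes and features tested. With arrays weighted it passed (-0.50, limma adjusted p = 0.0188), where replicate 3, its lowest array, had a weight of 6.97 against 0.27 for replicate 2, and where 852 genes and features passed in all. With the signs of swapped arrays left as deposited, the mean turned to 0.12.

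Mlc2 had 0.33, -0.48, -0.28 and -0.09 on day 14 replicates 1 to 4, with a mean of -0.13 ± 0.26 (SE, n = 4). Mlc1 had no value on replicate 1 and -0.63, 0.41 and -0.004 on replicates 2 to 4, with a mean of -0.08 ± 0.36 (SE, n = 3). Both myosin light chain genes had arrays on either side of 0. Prm and Tm2 had only 2 values each and were not tested at day 14. Prm had 0.34 on replicate 2, from its second spot pair alone, and -0.36 on replicate 3, from both pairs, which there averaged -0.32 and -0.41. Tm2 had 0.14 on replicate 3 and 0.29 on replicate 4, both above 0, where its day 10 values were all below. Both of these arrays were dye-swapped, and as deposited the values were -0.14 and -0.29, on the same side of 0 as the day 10 mean of -0.38 on that reading.

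Of the 3 genes tested at day 14, 0 passed limma's test, against 0 of 6142 genes and features (0%). None of the 3 had an unadjusted p under 0.05, as did 0.57% of all genes and features. All 3 means, of Act88F, Mlc2 and Mlc1, were below the median of all tested, -0.001, as 50% of all are, with a median of -0.13. That sign rested on the dye reading: with swapped arrays left as deposited, Act88F and Mlc2 were at 0.12 and 0.05, and Mlc1 stayed below 0 at -0.35.

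The ratios of day 14 and day 10 were then compared for the genes measured on both days. Act88F differed by -0.03 ± 0.36 (SE), Mlc2 by -0.04 ± 0.39 (SE) and Mlc1 by 0.18 ± 0.48 (SE), day 14 minus day 10. All 3 differences were smaller than their standard errors, and all 3 lay below the median over all tested, 0.27, as 50% of all do. That median carried the array offsets: with arrays centred on their medians it was -0.006, and 2 of the 3 lay below it. By limma 0 of the 3 passed, as did 0 of 5187 genes and features (0%). At an unadjusted p under 0.05 there were 0 of the 3, beside 58 of all (1.12%). When 2 values a day were enough, Prm had -1.15 at day 10 and -0.01 at day 14, a difference of 1.14 ± 0.57 (SE) that did not pass (limma adjusted p = 0.993). In the same fit Tm2 differed by 0.70 (limma adjusted p = 0.993). The Prm difference lay in its second spot pair, which had a day 10 mean of -2.02, and 0.34 and -0.41 on day 14 replicates 2 and 3. Its first pair had a day 10 mean of -0.28, and -0.32 on day 14 replicate 3, its only day 14 array. The 2 day means of Prm thus did not rest on the same spots.

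Among other sarcomere and muscle genes none was as low as Prm at day 10, and they ranged from percentile 12.1 (CG5023) to 58.7 (Zasp66) of all genes and features. The list held 28 genes, of which 8 were on the array and tested on both days, and 0 passed in either direction on either day. At day 10 they ran from -0.54 to -0.20 with a median of -0.34, and 6 of 8 lay below the median of all genes and features. By array, 7 of 8 lay below the array median on replicate 1, and 4 of 7, 2 of 5 and 3 of 8 on replicates 2 to 4. With array medians subtracted, the list medians on replicates 1 to 4 were -0.24, -0.01, 0.08 and 0.07. The lowest were CG5023, a calponin-like gene, at -0.54 ± 0.34 (SE, n = 3) and the troponin C gene TpnC73F at -0.43 ± 0.35 (SE, n = 3). The highest were the Z-disc gene Zasp66 at -0.20 ± 0.26 (SE, n = 4) and the muscle actin gene Act87E at -0.22 ± 0.28 (SE, n = 4).

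At day 14 the same list ran from -0.19 to 0.26 with a median of -0.03. The actin gene Act79B had -0.19 ± 0.25 (SE, n = 4) and the alpha-actinin gene Actn -0.15 ± 0.30 (SE, n = 3), the lowest, at 0.16 and -0.27 with swapped arrays left as deposited. TpnC4, a troponin C gene of flight muscle, had 0.23 ± 0.31 (SE, n = 3) and TpnC73F 0.26 ± 0.35 (SE, n = 3), the highest. The TpnC73F mean came from replicate 1, at 0.90, beside -0.14 and 0.015 on replicates 3 and 4. TpnC4 was above 0 on all 3 measured arrays at day 14, as were 4.35% of genes and features tested there on every measured array. Neither TpnC4 nor TpnC73F had a value on replicate 2, the array with the lowest median (-0.48). With arrays centred on their medians, TpnC4 was at 0.05 (percentile 60.5) and TpnC73F at 0.08, below CG5023 at 0.16.

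Genes of muscle calcium handling and energy supply formed a second list of 11, with 5 on the array. At day 10 these 5 ran from -0.48 to 0.31 with a median of -0.11, above that of all genes when arrays were not centred. Gpdh1, glycerol-3-phosphate dehydrogenase, had -0.48 ± 0.26 (SE, n = 4) and RyR, the calcium release channel, -0.37 ± 0.36 (SE, n = 3). The calcium-binding protein gene Scp1 had 0.31 ± 0.32 (SE, n = 3) and the calcium channel subunit gene stj -0.08 ± 0.26 (SE, n = 4). Scp1 turned to -0.12 with swapped arrays left as deposited. The median of -0.11 was that of the glycogen phosphorylase gene Glyp. Neither Glyp nor Scp1 had a value on replicate 1, the array with the lowest median (-0.83). With arrays centred on their medians, Glyp was at -0.03 (percentile 38.7), below the median of all, 0.03. On that scale Gpdh1 and RyR were at -0.22 and -0.04, and stj and Scp1 at 0.19 and 0.38. At day 14, 4 were tested with a median of -0.35, and all 4 lay below the median of all genes.

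The glycogen phosphorylase gene Glyp was below 0 on all 4 day 14 arrays, at -0.37, -0.86, -0.43 and -0.31, with a mean of -0.49 ± 0.26 (SE, n = 4). Gpdh1 had -0.25, -0.99, -0.59 and -0.14 on those arrays and a mean of -0.49 ± 0.26 (SE, n = 4). Values below 0 on every measured array were found in 7.13% of genes and features at day 14. Neither gene passed (limma adjusted p = 1), and with swapped arrays left as deposited both means were nearer 0, at -0.12 and -0.13. With arrays centred on their medians, both means were -0.51 and neither passed (limma adjusted p = 0.999). The limma unadjusted p there was 0.012 for Glyp and 0.0023 for Gpdh1, where 176 of 6142 genes and features were under 0.05. Scp1 and stj had -0.21 ± 0.32 (SE, n = 3) and -0.05 ± 0.30 (SE, n = 3), and Scp1 turned to 0.16 on the reading as deposited. Gpdh1 and Glyp also serve fat body and other tissues, so their ratios are not specific to muscle.

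Actin and myosin genes of non-muscle cells were the third list, with 8 of 25 on the array. At day 10 the 8 ran from -0.44 to -0.06 with a median of -0.16, and 2 lay below the median of all genes and features. Mlc-c, the light chain gene of non-muscle myosin, had -0.44 ± 0.26 (SE, n = 4), the lowest. The highest were flr, an actin-interacting protein gene, at -0.12 ± 0.29 (SE, n = 3) and the capping protein gene cpa at -0.06 ± 0.33 (SE, n = 3), which turned to 0.43 as deposited. At day 14, 4 were tested, from Mlc-c at -0.17 ± 0.26 (SE, n = 4) and the profilin gene chic at -0.01 ± 0.26 (SE, n = 4) to the fascin gene sn at 0.01 ± 0.26 (SE, n = 4) and the villin-like gene qua at 0.34 ± 0.28 (SE, n = 4). As deposited, sn turned to -0.06. In the main fit, without centring, none of the 3 lists had a member past limma's adjusted threshold or at an unadjusted p under 0.05 on either day. Of all genes and features, 5.58% at day 10 and 0.57% at day 14 had an unadjusted p under 0.05.

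Markers of other head tissues were set beside Prm. Fat body genes at day 10 ran from percentile 0.46 (Lsp2) to 96.8 (Yp2), with Yp3 the next highest at 69.5. Of 17 fat body markers, 13 were on the array and 10 were tested at day 10, with a median of -0.37 and 7 below the median of all genes. The larval serum protein gene Lsp2 had -1.24 ± 0.36 (SE, n = 3) and the lipoprotein gene apolpp -0.76 ± 0.28 (SE, n = 4), and 3 of the 10 had an unadjusted p under 0.05, all lower, with none past the adjusted threshold. The yolk protein genes Yp2 and Yp3 lay above the median of all genes, at 0.23 ± 0.41 (SE, n = 3) and -0.14 ± 0.27 (SE, n = 4). Whether these yolk protein genes report fat body in males was not tested. With swapped arrays left as deposited, Lsp2 was at -0.38 and apolpp turned to 0.25. On single day 10 arrays, centred medians of the fat body list were -0.08, 0.06, -0.15 and -0.65 on replicates 1 to 4. Centred by position they were -0.16, -0.07, -0.18 and -0.15. The part of fat body in the value of Prm was not tested. Neuron markers had a day 10 median of -0.21 (6 tested), photoreceptor markers of -0.19 (10 tested) and glia markers of -0.42 (7 tested). At day 14 the medians of fat body, photoreceptor, neuron and glia markers were -0.18, -0.16, -0.02 and -0.12.

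**Figure D4:**
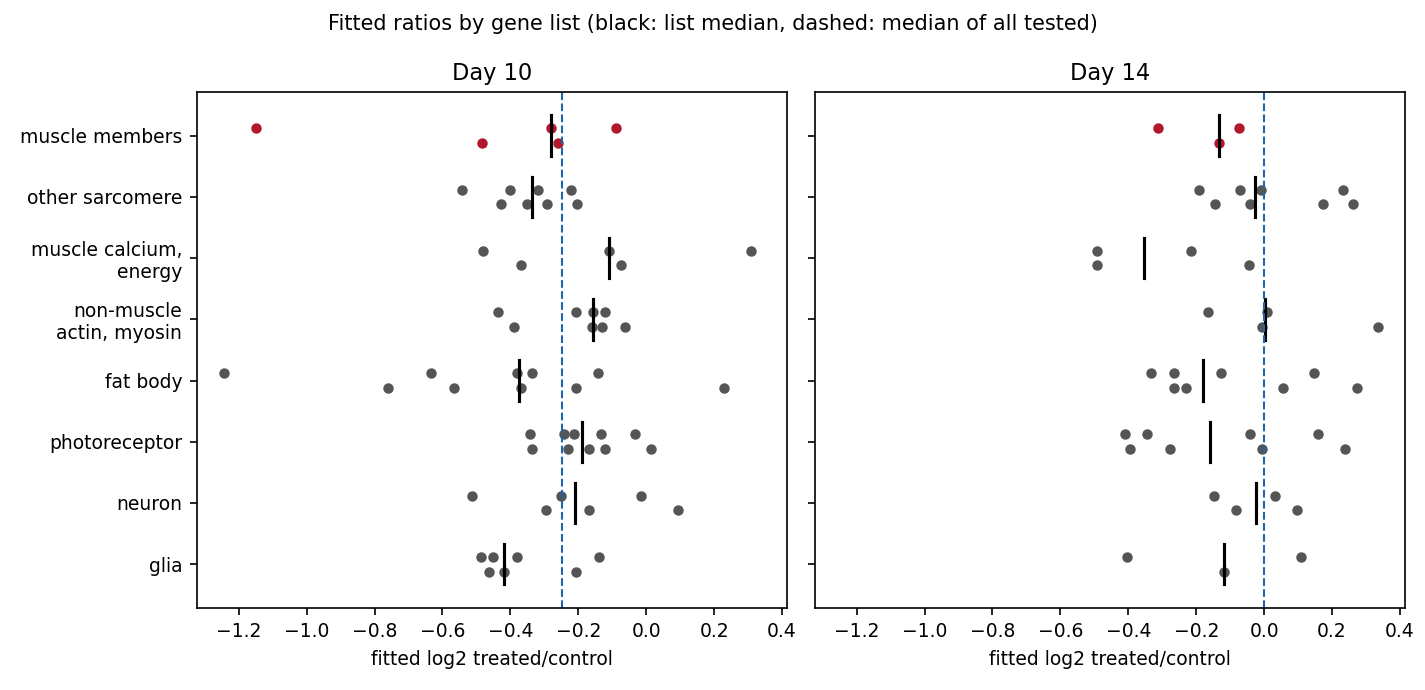
Fitted log2 ratio of treated over control (x axis) for the muscle genes (red) and 7 other gene lists (grey) at day 10 and day 14, 1 point per tested gene; black ticks are list medians and the dashed line is the median over everything tested. Prm at -1.15 is the lowest point of the muscle lists at day 10, beside the fat body gene Lsp2 at -1.24.

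Only Act88F had values on all 8 arrays and could serve as a profile to which other genes were compared. Among 897 other named genes with 8 values, the smallest root mean square distances to its centred values belonged to crc at 0.15, CG8036 at 0.21, CG3088 and Nap1 at 0.22 and 0.23, and GatA at 0.23, where the median gene had 0.62. Of the other actin genes of muscle, Act79B ranked 78th with a distance of 0.41 and Act87E ranked 376th with 0.60. The closest genes by ratio were thus not the actin genes on the array, and all distances share the dye orientations of the same 8 arrays.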

How the data were processed

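Treated and control heads were compared on 8 spotted 2-colour arrays. Per the labels' protocols, GenePix Pro quantified the slides and Acuity normalized the ratios. Features without a value on an array were treated as missing. The deposited values are log2 ratios per feature, and base 2 was inferred from their extremes. The sources used here do not name the numerator dye. Features with exactly 1 annotated symbol (15116 of 27648) were averaged per gene, named through the RefSeq gene table, and all other features were tested singly. A model with 1 mean per day was fitted over the 8 arrays with limma 3.58.1 (R 4.3.3), on genes and features with 3 of 4 values on a day, with Benjamini-Hochberg adjustment over all of them and a threshold of 0.05. Errors are standard errors of that fit, and the number of arrays limits the precision. Centring by position subtracted the median of each run of 576 features, then that of each run of 24, where a run held 8 or more values. The fit was tested on simulated data. Members, lists and alternatives were chosen with earlier results of these data known; the Prm spot pairs and the unturned reading centred by position were added after seeing the values. Genes named from a list were its 2 highest and 2 lowest per day (1 of them is not reported here), and the 5 most like the members' profile over arrays; Lsp2, apolpp, Yp2 and Yp3 were named after their values were seen.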

Additional observations from a re-analysis of the deposited data

Results flagged for a closer look

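Tm2 lay below 0 on all 3 measured day 10 arrays and above 0 on both measured day 14 arrays, and the day means differed by 0.696. With array medians subtracted the day means were -0.16 and 0.09, and centred by position -0.09 and 0.10. Both day 14 arrays were dye-swapped, and as deposited their values were -0.14 and -0.29. With only 2 values at day 14 this difference was not tested in the main comparison. The muscle actin gene Act87E had -1.07 on day 10 replicate 1, far from its other 3 arrays, which lay between 0.01 and 0.11. The median of all values on that array was -0.83, and centred on it Act87E stood at -0.24. Of the 25 groups of 4 values examined, this was the only one with a sample apart, and chance sets apart about 1 in 20.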

How the results depend on the processing

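The counts of all genes and features past the threshold were 0 at day 10, day 14 and for the day difference. At day 10 the count was 67 with swapped arrays not turned, 14 with a dye term, 2 with the replicate number as a block, 91 with array weights, 3 with the day fitted alone and 0 to 3 with single arrays left out, the 3 without day 14 replicate 3. At day 14 it was 852 with array weights and 2 with the day alone, and the day difference had 17 with array weights. The block gave no member a call: Prm had an adjusted p of 0.0532 (limma). The numbers were not treated as pairs, since deviations of same-numbered arrays of the 2 days correlated at 0.03, 0.37, 0.22 and 0.19 (Pearson r over 2217 genes and features, which are not independent replicates) and replicate 1 did not correlate best with its own number. The day 14 median of the members moved from -0.13 to 0.16 with arrays centred and not turned. At day 10 the count at an unadjusted p under 0.05, 631, was 377 without day 10 replicate 1 and 2013 without day 10 replicate 4. Prm kept its day 10 sign in all 22 alternatives (-2.02 to -0.27), none of which joined a single spot pair with centring.

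Among the other members signs turned often. At day 10, Act88F was at 0.31 unturned, 0.16 centred by position, 0.60 centred and unturned and 0.49 by position and unturned. Mlc2 was at 0.048, 0.030 and 0.38 under the last 3 of these settings and 0.065 with the block, Tm2 at 0.026 centred and unturned and 0.15 by position and unturned, and Mlc1 at 0.0056 with arrays centred. At day 14, Act88F was at 0.12, 0.23 and 0.14 and Mlc2 at 0.053, 0.16 and 0.27 unturned, centred and unturned, and by position and unturned. Mlc1 was at 0.0017 centred, 0.11 by position and 0.28 with array weights. For the day difference, Mlc1 was at -0.0040 centred, -0.0069 with a dye term and -0.18 with the block, and Mlc2 at 0.12 unturned, 0.13 centred and unturned and 0.039 with array weights. With single arrays left out, Mlc1 ran from -0.57 to 0.10 at day 10, from -0.32 to 0.20 at day 14 and from -0.18 to 0.50 for the difference, Mlc2 from -0.34 to 0.091 at day 10 and from -0.22 to 0.21 for the difference, and Act88F from -0.24 to 0.087 for the difference. The cause of these turns was not tested. Signal over background was not examined here.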
